A study of Mus musculus with 10 samples.

Results

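Broad domains of H3K27me3, the trimethyl mark on lysine 27 of histone H3, were examined in mouse fetal liver long-term hematopoietic stem cells (LT-HSCs). H3K27me3 is written by Polycomb repressive complex 2 (PRC2) and is read by the CBX subunits of Polycomb repressive complex 1. It typically covers CpG-rich promoters of developmental regulators that are silent in a given cell, and at some of them, the Hox clusters above all, it spreads over long continuous stretches of chromatin. The mark had been mapped by CUT&Tag, in which an antibody guides the Tn5 transposase so that sequenced fragments show where the mark lies.

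The cells were LSKCD48-CD150+ cells (lineage-negative, Sca-1+, Kit+) sorted from E14.5 fetal liver of wild-type (WT) embryos or of embryos lacking IκBα (KO). IκBα, encoded by Nfkbia, holds NF-κB in the cytoplasm. The KO embryos came from the Nfkbia targeted line, in which the gene is lost in every cell and not only in blood, and from matings of heterozygotes. There were 3 WT and 3 KO libraries, and the labels do not say which embryos entered which library, so p-values measure only the spread between these libraries. A figure legend of the study gives 2 independent experiments for this assay, while its reporting summary calls the 3 replicates independent. Replicates 1 and 2 had been sequenced with 75 bp reads and replicate 3 with 50 bp reads in both genotypes.

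A region was a stretch of overlapping peaks (1 bp or more) merged over replicates 1 and 2 of both genotypes. A domain was a merged region of 12 kb or more that held a peak of at least 2 of these 4 libraries. The domains were thus chosen by measured values, namely width and calls in these 4 libraries, and both are given for them as a description without a test. The merge gave 6929 regions, of which 4611 held peaks of at least 2 libraries and 531 (11.52%) were domains. The other 4080 are called narrower regions here. Both replicate 3 libraries stood apart from the rest. WT replicate 3 had 1047 peaks and KO replicate 3 had 2325, against 4160 to 6013 in the other 4 libraries. The widest peak of WT replicate 3 was 4.98 kb, against 19.1 kb in KO replicate 3 and 28.2 to 42.1 kb in the others. The peak files give no read totals, and the mapped reads that the study lists were used only to scale signal in an alternative. The median maximum in the domains was 12, 12 and 6 fragments in WT replicates 1, 2 and 3, and 13, 12 and 11 in those of KO.

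The widest domain by a wide margin lay over the Hoxc cluster, which encodes homeodomain factors that set position along the body axis. It spanned 127 kb (chr15:102904708-103031715, GRCm38) and held the starts of Hoxc13, Hoxc12, Hoxc11, Hoxc10, Hoxc5, Hoxc9, Hoxc8, Hoxc6 and Hoxc4. A gene's start is the 5′ end of its GENCODE M21 protein-coding gene model, which in the Hox clusters can lie beside a neighbouring gene. Peaks covered 85.2 and 101 kb of it in WT replicates 1 and 2, and 105 and 89.4 kb in KO replicates 1 and 2. It was 1.46 kb in WT replicate 3 and 22.4 kb in KO replicate 3. The second, of 72.3 kb (chr2:74644590-74716853), held Evx2 and Hoxd13, Hoxd12, Hoxd11, Hoxd10, Hoxd9, Hoxd8, Hoxd3 and Hoxd4. Its coverage was 46.4, 63.9 and 2.07 kb in the WT libraries and 56.4, 55.9 and 19.8 kb in the KO libraries. In both domains the genotypes overlapped among replicates 1 and 2, and WT replicate 3 was lowest.

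The third domain held no protein-coding gene. It spanned 66.3 kb (chr7:79493690-79560038) around Mir9-3 and its host transcript Mir9-3hg, and its edge lay 27.3 kb from the nearest coding start, that of Polg. It was covered for 53.5, 60.7 and 4.36 kb in the WT libraries and for 61.4, 58.5 and 17.3 kb in the KO libraries. miR-9 is a microRNA best known from neural progenitors. A domain around Mir9-1 spanned 27.7 kb (chr3:88194877-88222591), likewise without a coding gene. Other domains without a coding gene included those that held Mir124a-3 (22.4 kb), Mir96 and Mir183 (20.4 kb), Mir196a-1 (16.5 kb), Mir129-2 (15.9 kb), Mir124a-2 (14.7 kb) and Mir1a-1 (12.4 kb). miR-124 is a neuronal, miR-96 and miR-183 a sensory-organ and miR-1a a muscle microRNA. Mir6405 lay in a wider domain of 35.57 kb inside Pax2 that held no coding start. In all, 30 of 2202 miRNA genes started in a domain (1.36%), 14 of them in domains without a coding start. This share was below that of coding genes (2%), so miRNA genes as a class were not frequent in the domains. The RefSeq table (GRCm38.p6) matched 19 of the 30. The mature arms below show which microRNAs lay in domains, with the seed (bases 2 to 8) in capitals. Mir9-1 and Mir9-3 encode the same miR-9-5p, and Mir196a-1 and Mir196a-2 (the latter in the Hoxc domain) the same miR-196a-5p, so for both mature sequences 2 gene copies lay under separate domains.
miR-9-5p: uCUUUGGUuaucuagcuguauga
miR-96-5p: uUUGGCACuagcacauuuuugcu
miR-183-5p: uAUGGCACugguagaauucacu
miR-129-5p: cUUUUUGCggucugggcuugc
miR-196a-5p: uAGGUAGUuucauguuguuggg
miR-10b-5p: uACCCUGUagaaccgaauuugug
The seeds of these 6 differed from each other. Mir10b lay in a domain of 19.8 kb next to Hoxd4, and Mir375, a pancreatic islet microRNA, in the 21.8 kb domain of Cryba2.

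The other domains among the 12 widest held Hoxb13 (53.3 kb, chr11), Hmx1 (45.9 kb, chr5), Tbx3 (44.0 kb, chr5), Epn2 (43.4 kb, chr11), Lhx2 (42.6 kb, chr2), Scn4b (41.8 kb, chr9), Pax7 (39.975 kb, chr4), Cdh22 (38.8 kb, chr2) and Six3 (38.5 kb, chr17). Hmx1, Tbx3, Lhx2, Pax7 and Six3 encode transcription factors of sensory organs, limb, forebrain, muscle and neural crest, and eye. Scn4b encodes a sodium channel subunit, Cdh22 a cadherin and Epn2 an endocytic adaptor. Pax7 was covered for 30.1, 33.7 and 0 kb in the WT libraries and for 28.8, 37.1 and 8.51 kb in the KO libraries. Lhx2 was covered for 30.4, 40.4 and 4.59 kb in WT and for 37.3, 30.5 and 15.4 kb in KO. In each of these 2 domains the WT and KO values of replicates 1 and 2 overlapped, and both replicate 3 libraries were below all of them.

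The Hox genes differed by cluster, a split made after these values were seen. All 9 Hoxc genes and 8 of 9 Hoxd genes started in a domain, against 3 of 11 Hoxa genes (Hoxa10, Hoxa11 and Hoxa13) and 1 of 10 Hoxb genes (Hoxb13). A further 2 Hoxa, 4 Hoxb and 1 Hoxd genes started in narrower regions, among them Hoxb9 in one of 11.2 kb. The Mir196a-1 domain of 16.5 kb also lay inside the Hoxb cluster. Between Hoxa2 and Hoxa10 a stretch of 61.6 kb with the starts of Hoxa3, Hoxa4, Hoxa5, Hoxa6, Hoxa7 and Hoxa9 had no peak in any of the 6 libraries, and in the Hoxb cluster 59.9 kb with the starts of Hoxb2, Hoxb3, Hoxb4 and Hoxb5 had none. Hoxa9 and Hoxb4 are known from HSC expansion and self-renewal. No peak means that no block reached the top 0.5% of the library, which is not a measure of absence of the mark.

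**Figure D1:**
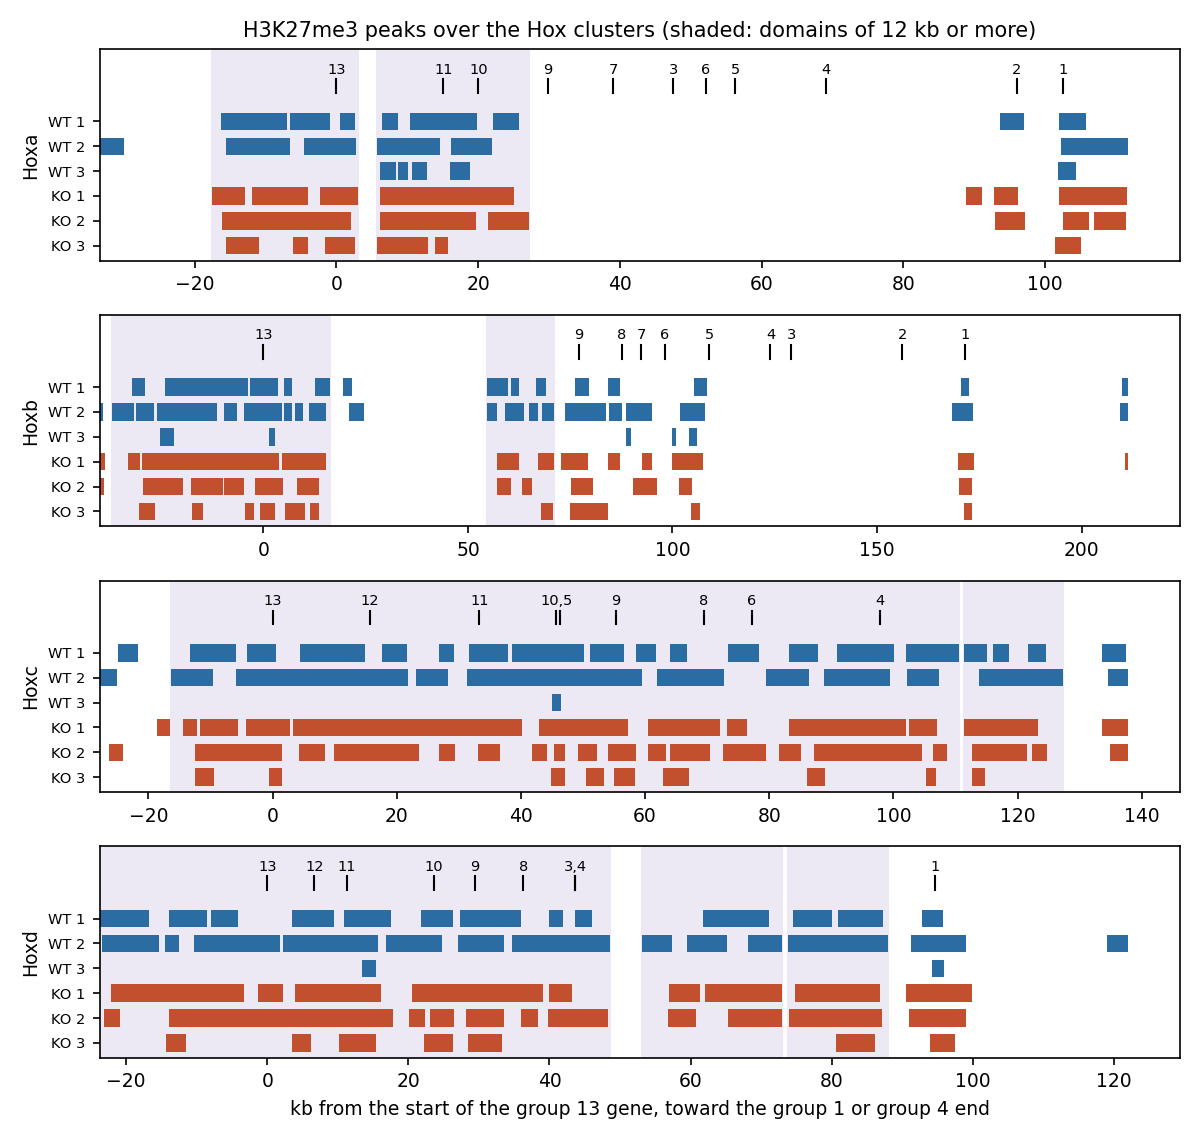
H3K27me3 peaks (bars) of the 3 WT (blue) and 3 KO (orange) libraries over the 4 Hox clusters, as kb from the start of the group 13 gene, with gene starts as ticks numbered by group and domains of 12 kb or more shaded. The shading spans the Hoxc cluster and most of Hoxd, and leaves 61.6 kb of Hoxa and 59.9 kb of Hoxb with no bar in any library.

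Domain width ran from 12 to 127 kb, with a median of 16.3 kb and quartiles of 13.8 and 21.9 kb. There were 163 domains of 20 kb or more, 41 of 30 kb or more and 9 of 40 kb or more. Together they spanned 10.1 of the 33.4 Mb of all 4611 regions (30.1%), and the median width of the narrower regions was 5.17 kb. The distribution had no gap at 12 kb. The domains just inside the limit held Gata3 with 2 further coding models (12001 bp), no coding gene on chr13 (12002 bp), Pcsk6 (12024 bp) and Nkx2-1 (12059 bp). The regions just outside lay in Eml1 (11999 bp), in Rbfox3 (11995 bp), at Gata5 (11971 bp) and in Mical2 (11961 bp). GATA3 and GATA5 are related zinc finger factors, of T cells and of endoderm and heart, and their regions fell on either side of the limit. Domains were found on every autosome, from 7 on chromosome 16 to 62 on chromosome 2, and 0 on chromosome X, where the widest of 33 regions was 9650 bp. They often lay near each other, since 173 had another domain within 50 kb, although the median distance to the nearest one was 279 kb.

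**Figure D2:**
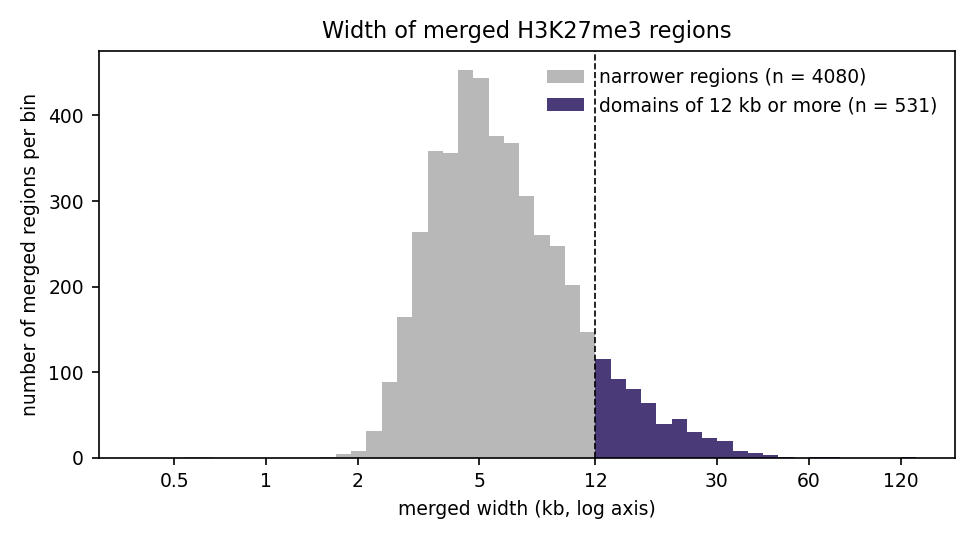
Number of merged regions by merged width (kb, log axis), with narrower regions in grey, the 531 domains in purple and the limit of 12 kb as a dashed line. The counts fall smoothly across the limit and the domains reach 127 kb.

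The domains were composites of several peaks. A single peak of 12 kb or more of 1 library was present in 344 domains, and the other 187 reached 12 kb only because peaks of different libraries joined. An unbroken stretch of 12 kb or more covered by at least 2 libraries was present in 262. Of the 10.1 Mb, 41.4% was covered in all 4 libraries and 15.0% in 1 only, against 22.7% and 27.05% in the narrower regions. Peaks of all 4 libraries were present in 526 domains (99.1%) and in 49.8% of the narrower regions. Neighbouring edges of the same domain in 2 libraries lay a median of 1.39 kb apart between the WT libraries, 1.25 kb between the KO libraries, and 1.25 and 1.26 kb between same-numbered WT and KO libraries, so edges differed as much within as between genotypes. Across these 526 domains, total signal (coverage by fragments, summed over the bases of a peak) had Spearman correlations between library pairs of 0.73 to 0.82. Domains share a library and its depth, and wider domains have more of both, so these values are descriptive.

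Most domains lay at genes. A coding start was inside 374 of them (70.4%, against 47.9% of the narrower regions, although per 10 kb of sequence the domains held 0.437 coding starts and the narrower regions 0.869), 95 lay only in gene bodies and 62 touched no coding gene. Of the 374, 331 held 1 start, 34 held 2 and 9 held 3 or more. Around a lone start the domain extended a median of 6.47 kb upstream and 10.6 kb downstream, and further downstream in 237 of 331 (71.6%), close to the 73.5% of the narrower regions. The start of a lncRNA lay in 172 domains (32.4%, against 10.5%), but per 10 kb of sequence the density was nearly the same (0.208 and 0.192). Median GC content was 50.7% in the domains and 50.6% in the narrower regions, and repeats took 15.4% and 14.6%, against 41.8% GC and 34.3% repeats in the genome.

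In all, 439 of 21911 coding genes started in a domain (2%). Every base of a merged region is covered by at least 1 library by construction. Of the 439 starts, 296 were covered in all 4 libraries and 10 in 1 only, namely Aqp2, Epn2, Fam83h, Gm15217, Lhb, Mast1, Pou2f3, Prr7, Tada2b and Vangl1. Pou2f3 is the only gene among them on the lists used below.

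Pax, homeobox, T-box, zinc finger and Forkhead genes, all transcription factors of development, had the 5 largest shares in domains among the lists. Of 176 homeobox genes, 102 started in a domain (58.0%), in 83 domains with a median width of 20.8 kb. Of 9 Pax genes 7 did, and Pax7 (39.975 kb), Pax2 (34.9 kb), Pax6 (30.5 kb) and Pax3 (28.1 kb) were the widest. Pax5, which drives B cell fate, lay in a domain of 25.6 kb covered for 20.6, 22.3 and 2.52 kb in WT and 20.8, 19.6 and 11.7 kb in KO. Of 17 T-box genes 8 did, led by Tbx3, Tbx5 (32.9 kb), Tbx15 (28.8 kb) and Tbx2 (24.9 kb), which act in heart and limb. Of 44 Forkhead genes 16 did, with Foxf1 (27.9 kb), Foxa2 (27.3 kb), Foxo6 (25.6 kb) and Foxb1 (24.2 kb) the widest. Of 42 genes of the GATA, Zic, Gli and other zinc finger list 16 did. Gata4, a factor of heart and endoderm, was in a domain of 31.1 kb covered for 23.6, 28.2 and 3.07 kb in WT and for 29.3, 22.9 and 10.9 kb in KO. The blood factors Gata1 and Gata2 had no region. Of 63 bHLH genes 19 did, and Neurod2 (30.6 kb), Olig2 (29.5 kb) and Ebf3 (23.6 kb) are neural factors while Hand2 (27 kb) acts in heart and limb. Of 20 Sox genes 6 did, led by the neural genes Sox1 (36.7 kb), Sox14 (21.1 kb), Sox21 (20.2 kb) and Sox2 (14.6 kb).

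Most lists of signalling and effector genes had smaller shares, although all of these shares were above the 2% of all coding genes. The Wnt list (28.1%) and the cyclin-dependent kinase inhibitors (28.6%) were close to the Sox (30%) and bHLH (30.2%) lists. Differences between lists were not tested. Of 32 Wnt ligands and secreted inhibitors 9 started in a domain, led by Wnt10a (30.3 kb), Wnt7a (24.6 kb), Wnt1 (23 kb) and Wnt3a (18.4 kb), and 19 more in narrower regions. The BMP and TGF-β list had 5 of 43, with Gdf6 (20.9 kb) and the BMP antagonist Nog (15.3 kb) the widest. The FGF list had 2 of 27 (Fgf8, 14.7 kb, and Fgf9, 12.6 kb), and the Hedgehog list 2 of 9 (Ihh, 17.4 kb, and Shh, 16.6 kb). The axon guidance list had 8 of 71, led by Epha8 (29.3 kb) and Ntn1 (27.2 kb). Voltage-gated channels had 12 of 132, with the widest of them at Scn4b. Neurotransmitter receptors had 8 of 113, led by the glutamate receptor subunit gene Grin2c (23 kb). Collagens had 2 of 44, Col2a1 (15.1 kb) and Col1a1 (14.499 kb). Of 20 retinoic acid genes, only Crabp2, which encodes a cellular retinoic acid binding protein, started in a domain. Its domain of 12.2 kb was covered for 8.46, 8.77 and 2.32 kb in WT and for 11.8, 11.2 and 9.68 kb in KO, so each KO value exceeded each WT value, and the merged peaks of replicates 1 and 2 reached 12 kb in KO alone, as they did at Lhx9. Such an order held in 3 of 531 domains (Crabp2, Foxb2 and Lhx9), against 1.41% of all regions, and the opposite order in 0, against 0.0651%. Of 7 cyclin-dependent kinase inhibitors, Cdkn2a and Cdkn2b, which hold cells out of cycle, shared a domain of 28.7 kb covered for 15.1, 24.8 and 1.20 kb in WT and for 20.8, 21.0 and 4.29 kb in KO. Cdkn2a has 2 coding transcript starts, of which only 1, that of the gene model, lay in this domain.

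None of 14 blood and HSC genes, among them Ptprc, Kit and Runx1, had its start in a domain or in any narrower region, and neither had any of 5 hepatoblast, 4 endothelial and 4 erythroid genes. The cell type therefore cannot be checked from these lists, since blood genes and genes of other fetal liver cells were alike without a region. Of 3 mesenchymal genes Col1a1 started in a domain, which was covered for 2.23, 12.97 and 0 kb in WT and 7.39, 2.87 and 0 kb in KO. No clustered protocadherin (of 56), olfactory or vomeronasal receptor (of 1418) or ribosomal protein gene (of 79) started in a domain.

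**Figure D3:**
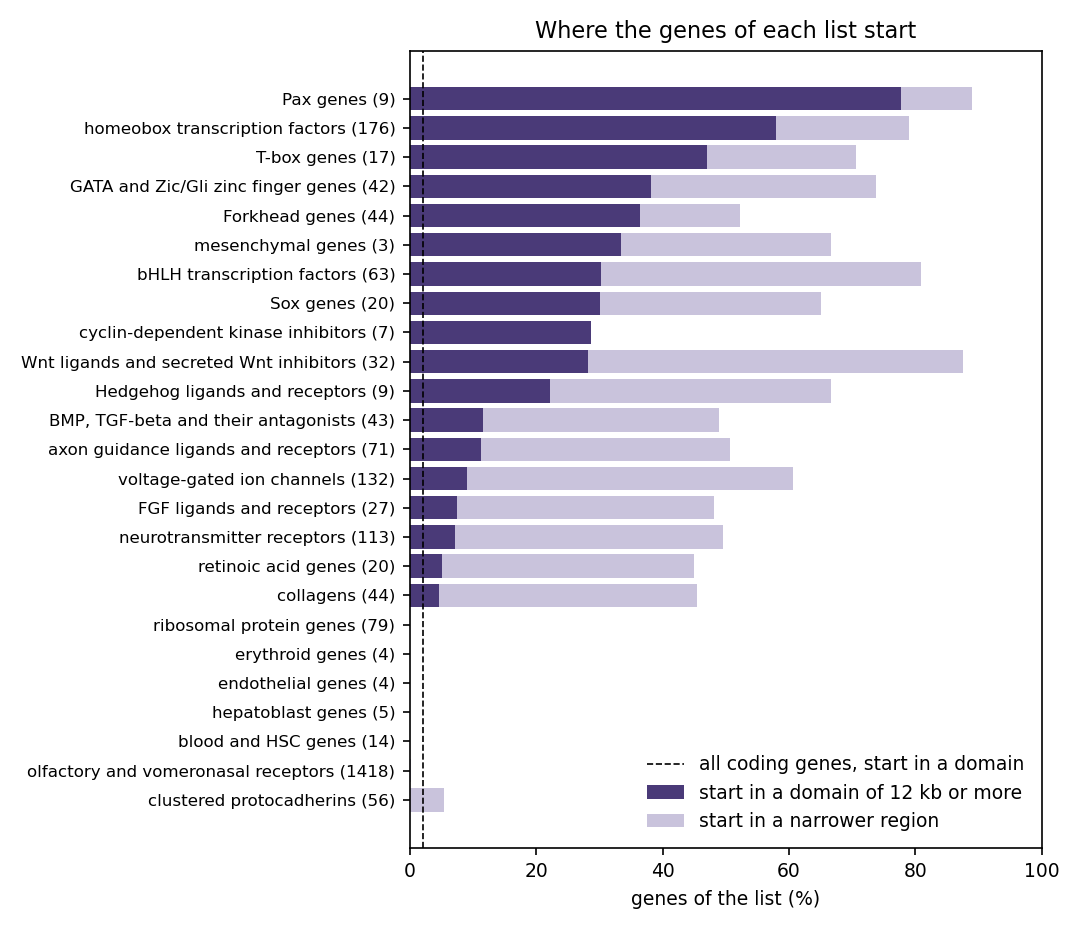
Percent of the coding genes of each list (number of genes in brackets) that start in a domain of 12 kb or more (dark) or in a narrower region (light), with the 2% of all coding genes as a dashed line. Pax and homeobox genes have the highest share in domains, and blood, hepatoblast, endothelial, erythroid and ribosomal genes have none in either.

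Replicate 3 of each genotype was not used in choosing the domains. WT replicate 3 had a peak in 275 of 531 domains (51.8%) and in 15.1% of the narrower regions, against 19.3% over all 4611 regions. KO replicate 3 had a peak in 442 (83.2%) and in 35.8% of the narrower regions, against 41.3% over all. In both libraries the share thus stood well above that of all regions, although a wider region has more room for a peak. It rose through the width classes from 3.44% of the regions under 3 kb to 69.3% of those of 20 kb or more in WT, and from 7.56% to 93.3% in KO. Both libraries had a peak in 269 domains, KO alone in 173, WT alone in 6 and neither in 83. Each genotype has 1 such library, and these 2 differ in number of peaks, so genotype and library cannot be told apart.

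**Figure D4:**
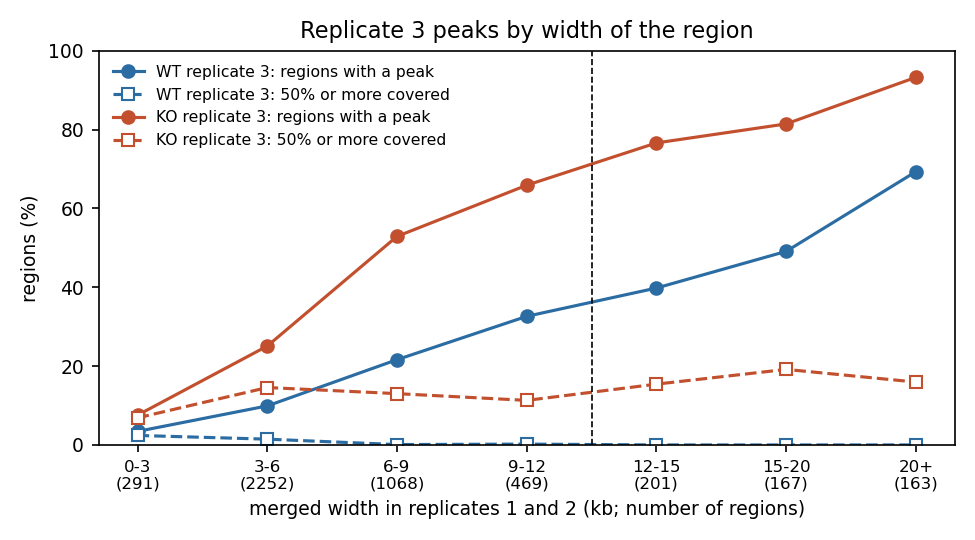
Percent of merged regions by width class (kb, with the number of regions) that had a replicate 3 peak (filled circles) or were covered for 50% or more of their width by replicate 3 peaks (open squares), in WT (blue) and KO (orange), with 12 kb as a dashed line. Calls rise with width to 69.3% and 93.3%. Coverage of 50% or more is at 0% of the 3 widest classes in WT, and in KO at 6.87% of regions under 3 kb and 15.4%, 19.2% and 16.0% of the 3 widest classes.

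Replicate 3 peaks were mostly narrower than the domains. WT replicate 3 had 0 peaks of 12 kb or more and KO replicate 3 had 6. In domains with a peak, replicate 3 peaks of WT covered a median of 1.93, 1.95 and 2.18 kb in those of 12 to 15, 15 to 20 and 20 kb or more, and those of KO 4.71, 6.06 and 8.74 kb. Peaks covered 50% or more of the domain in 0 domains in WT replicate 3 and in 89 in KO replicate 3. Domains with the strongest replicate 3 signal relative to a median peak included those of Cbx8, Lmx1b, Lbx1 and Tbx2. Cbx8 encodes a subunit of Polycomb repressive complex 1, and its domain of 34.6 kb was covered for 22.8, 26.2 and 8.64 kb in WT and for 29.1, 28.0 and 21.3 kb in KO. The widest domains with no replicate 3 peak lay at Epn2 (43.4 kb), in Lifr and Egflam (25.6 kb), at Foxb1 (24.2 kb), in Gm20388 (21.7 kb) and on chr12 away from coding genes (21.1 kb). The Epn2 domain had coverage of 23.4 and 32.9 kb in WT and 26.8 and 22.6 kb in KO replicates 1 and 2. Of the 9 domains of 40 kb or more, 8 had a peak in both replicate 3 libraries.

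The maxima of replicate 3 lay closer to coding starts in domains and narrower regions alike, a comparison made after the values were seen. In the 268 domains called in all 6 libraries, the maximum lay within 1 kb of a coding start in 16.8% and 16.4% of them in WT replicates 1 and 2, and in 38.1% in WT replicate 3. In KO the values were 20.1% and 18.7%, and 34.7% in replicate 3. In the narrower regions that each library called, the share was 55.9% in WT and 56.1% in KO replicate 3, against 27.3% to 31.2% in the other 4 libraries. In the domains that each library called it was 37.5% and 34.6%, against 14.7% to 17.8%. On that basis the contrast was not particular to the domains. The called sets differ, with 617 and 1461 narrower regions in WT and KO replicate 3 against 2796 to 3609 in the others. Of all domain sequence, 8.49% is this close to a coding start. The observed to expected CpG ratio at the maximum had medians of 0.377, 0.362 and 0.653 in WT and 0.395, 0.402 and 0.662 in KO replicates 1, 2 and 3. Of the domain sequence under peaks, 28.5% in WT and 19.5% in KO replicate 3 was within 1 kb of a coding start, against 9.40% to 10.8% in the other 4 libraries. Replicate 3 of both genotypes was therefore closer to starts and CpG-richer than any library of replicates 1 and 2. Across the 268 domains the Spearman correlation of total signal was 0.18 between WT replicates 3 and 1, 0.58 between KO replicates 3 and 1 and 0.43 between both replicate 3 libraries, which describes domains of shared libraries. The libraries also differed in read length, in number of peaks and in mapped reads, which the study lists as fewer for both replicate 3 libraries than for the rest, and whose part in this was not tested.

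The contrast can be read in the sequence of single domains. The lines below give 150 bases (GRCm38, plus strand) at the centre of the maximum of KO replicate 2 and of KO replicate 3, with CpG sites in capitals, for domains among the 6 widest.
Hoxd domain, KO replicate 2, chr2:74663505-74663654: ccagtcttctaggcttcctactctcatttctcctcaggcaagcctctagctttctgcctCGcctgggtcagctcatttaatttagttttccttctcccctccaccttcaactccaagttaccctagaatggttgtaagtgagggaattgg
Hoxd domain, KO replicate 3, chr2:74673043-74673192: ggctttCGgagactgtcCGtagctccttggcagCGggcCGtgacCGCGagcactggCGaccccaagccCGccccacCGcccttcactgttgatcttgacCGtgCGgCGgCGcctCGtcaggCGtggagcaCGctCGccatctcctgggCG
Hoxb13 domain, KO replicate 2, chr11:96178252-96178401: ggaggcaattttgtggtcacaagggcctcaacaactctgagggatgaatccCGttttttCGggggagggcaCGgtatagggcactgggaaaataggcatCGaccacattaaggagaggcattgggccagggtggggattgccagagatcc
Hoxb13 domain, KO replicate 3, chr11:96190007-96190156: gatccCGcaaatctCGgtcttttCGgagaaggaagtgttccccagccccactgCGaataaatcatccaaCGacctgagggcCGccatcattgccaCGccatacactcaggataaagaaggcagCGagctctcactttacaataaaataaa
Mir9-3 domain, KO replicate 2, chr7:79496147-79496296: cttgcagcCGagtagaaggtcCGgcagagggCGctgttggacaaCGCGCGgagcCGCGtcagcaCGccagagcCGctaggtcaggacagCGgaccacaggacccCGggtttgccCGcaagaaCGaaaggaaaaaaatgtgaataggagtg
Mir9-3 domain, KO replicate 3, chr7:79496098-79496247: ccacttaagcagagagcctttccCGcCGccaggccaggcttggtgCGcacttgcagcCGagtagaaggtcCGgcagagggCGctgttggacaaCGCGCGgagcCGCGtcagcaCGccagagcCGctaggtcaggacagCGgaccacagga
In the Hoxd domain the 150 bases at the replicate 2 maximum held 1 CpG and lay 4023 bp from the nearest coding start, that of Evx2, whereas those at the replicate 3 maximum held 18 CpGs and lay 1895 bp from one. In the Hoxb13 domain the windows held 4 and 8 CpGs, at 15989 and 4234 bp from the nearest start. In the Mir9-3 domain both maxima fell on the same CpG-rich stretch, with 14 CpGs in each window, so the shift was not a property of every domain. None of these 6 windows lay in an exon. Among the windows not printed, that of KO replicate 2 at Hoxc, that of KO replicate 3 at Hmx1 and both at Tbx3 overlapped an exon.

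The comparison of KO with WT asked whether the loss of IκBα altered the mark at the domains. Domains held 38.1%, 32.3% and 37.3% of the total peak signal of WT replicates 1, 2 and 3, and 35.3%, 33.0% and 39.2% of that of the KO libraries. The means were 35.9% ± 3.15 (SD, n = 3) in WT and 35.8% ± 3.12 (SD, n = 3) in KO, and the ranges overlapped almost fully. The difference was -0.099 percentage points. No test is given, since total signal sums coverage over the widths and calls that the rule used. Within replicates 1 and 2 the difference was -1.08 points, and between the single replicate 3 libraries it was 1.87 points.

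Covered length in the domains was 6.53, 8.18 and 0.704 Mb in WT and 7.55, 7.14 and 3.01 Mb in KO. The 2 KO values of replicates 1 and 2 lay between the WT values of replicates 1 and 2, and the replicate 3 values were below all others. These lengths too are a description without a test. The mean log2 length was 0.70 higher in KO. The difference was 0.0061 within replicates 1 and 2 and 2.10 between the replicate 3 libraries, and without WT replicate 3 it was -0.42.

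Signal was then compared domain by domain. In replicates 1 and 2, 526 of the 531 domains had peaks in all 4 libraries, among 2558 such regions, and log2 total signal was centred on the library median. Total signal holds the covered length of the 4 libraries that chose the domains, so its differences are a description and no p is given for them. The median KO to WT difference over the domains was -0.043 on the log2 scale (228 of 526 above 0), and -0.0080 over all regions, while the median standard error of a domain was 0.33. With all 3 replicates, 268 domains and 718 regions were called in all 6 libraries. The median difference over the domains was 0.11 (169 of 268 above 0) and -0.020 over all regions, with a median standard error of 0.38. The median over the domains had no stable sign. It was -0.14 without WT replicate 3, 0.25 without WT replicate 1 and 0.21 without WT replicate 2 or without KO replicate 3. With weights per library it was -0.011. Scaled by total signal it was -0.13 (94 of 268 above 0), but that scaling moved every region alike, and the median of all regions was then -0.26. Relative to that median the domains stood at 0.13, as without this scaling. The mean signal per covered base, which the rule did not use, was fitted with limma over the same regions, an alternative measure that was made the test after the data were seen. In replicates 1 and 2, 0 domains passed (0% of regions, smallest adjusted p 0.98), and at an unadjusted p under 0.05, 1 was higher and 3 were lower in KO, against 2.19% and 2.54% of all regions. The median difference over the domains was -0.020 on the log2 scale, with a median standard error of 0.18. With 6 libraries 0 domains passed (0% of regions, smallest adjusted p 0.99), and 2 were higher and 2 lower at an unadjusted p under 0.05, against 2.51% and 1.25% of all regions. The median difference was -0.032, with a median standard error of 0.16.

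**Figure D5:**
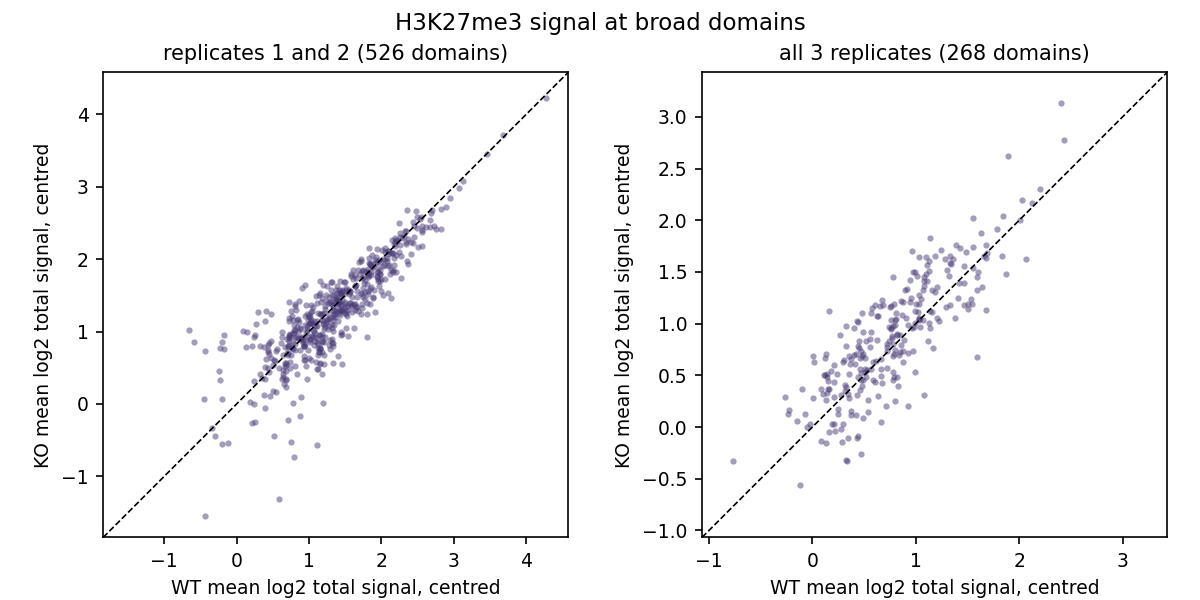
Mean log2 total signal per domain, centred on the library median, in KO (vertical axis) against WT (horizontal axis), for the 526 domains called in replicates 1 and 2 of both genotypes (left) and the 268 called in all 6 libraries (right), with the line of equality dashed. Points scatter on both sides of the line.

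Domains are named here by their rank by p in the fits of total signal, 3 in each direction. A domain could reach 12 kb through the peaks of 1 genotype, and the choice of members then favours a higher signal in that genotype. Of the 531 domains, 230 reached 12 kb with the merged peaks of each genotype, 107 with those of WT alone, 107 with those of KO alone and 87 with neither. All 6 domains named here from replicates 1 and 2 reached it in 1 genotype only, so their values are a description without a test. In replicates 1 and 2 the first of the domains lower in KO was a 14.53 kb domain in Mettl8 (chr2:71021310-71035839), with total signals of 28663 and 31832 in WT and of 10201 and 7526 in KO (log2 difference -1.90). Its peaks covered 7.43 and 10.8 kb in WT and 3.02 and 1.99 kb in KO, the widest merged stretch was 14.53 kb in WT and 3.80 kb in KO, and neither replicate 3 library had a peak there. The first of those higher in KO was a 13 kb domain in Tfap2b, a neural crest factor gene, with 12488 and 12897 in WT and 50773 and 37963 in KO (log2 difference 1.68). Its coverage was 3.09 and 3.75 kb in WT and 11.47 and 11.86 kb in KO, and the widest merged stretch 4.77 and 13.03 kb. Total signal, centred on the library median, did not overlap between genotypes in 63 of the 526 domains with KO higher (14.9% of all regions) and in 94 with KO lower (16.9% of all regions), so such an order was not particular to these 2. In the Mettl8 and Tfap2b domains the mean signal per covered base differed by 0.011 and -0.056 on the log2 scale, so their difference was one of covered length. The next among those lower in KO were domains without a coding gene on chr5 (log2 difference -1.68, and -1.04 without KO replicate 1) and chr7 (-1.19, and -0.76 without KO replicate 2), which reached 12 kb in WT alone. The next among those higher lay in Celf5 (1.16, and 0.62 without WT replicate 1) and at Rnf165 (0.91, and 0.56 without WT replicate 1), which reached it in KO alone.

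With 6 libraries the first among domains higher in KO were at Pdx1 (log2 difference 0.96), Neurog3 (0.68) and Foxe1 (0.65, and 0.34 without WT replicate 3). Among those lower they were at Cabp1 (-0.62), Mgat5b (-0.72, and -0.39 without KO replicate 3) and Foxn4 (-0.65, and -0.43 without KO replicate 3). Of these, Foxe1 reached 12 kb in each genotype, Pdx1 and Neurog3 in KO alone, and Mgat5b, Foxn4 and Cabp1 in WT alone, so these values too are a description. Pdx1 and Neurog3 encode factors of the pancreas and its endocrine cells. At Pdx1 the WT libraries had total signals of 26953, 51855 and 4199 and the KO libraries of 73436, 58866 and 40989, and peaks covered 6.69, 11.9 and 1.42 kb in WT and 15.9, 13.9 and 11.49 kb in KO. At Pdx1 the ranges of these totals overlapped, since WT replicate 2 exceeded KO replicate 3. The totals are not scaled to depth, so this overlap does not carry over to the centred log2 difference of 0.96.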

How the data were processed

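Per the methods of the study and the submitters' processing notes, the authors trimmed reads with Trim Galore 0.6.6, aligned them to GRCm38 with Bowtie2 2.4.4, removed duplicates and called peaks per library with SEACR 1.3 (stringent, no IgG, top 0.5% of blocks). Peaks on blacklisted regions had been taken out, as the file names say. The deposited signal columns give the summed and the maximal fragment coverage of each peak, not scaled to depth. Weak mark lies below the top 0.5%, and peak number and width change with depth. The 4 IκBα CUT&Tag samples were not analysed here, and some named domains are not reported here.

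Peaks of WT and KO replicates 1 and 2 were merged at 1 bp of overlap, and regions of 12 kb or more with peaks of at least 2 of 4 libraries were kept. Total signal of a peak was shared out by overlapped length. Gene starts came from GENCODE M21 and sequences from GRCm38.p6. The members and gene lists were chosen with earlier results of these data known, and the named domains follow rules on width, replicate 3 signal and p. The share of library signal and covered length were not tested, since the rule used width and calls. limma 3.58.1 (R 4.3.3) was used for log2 mean signal per covered base of each region, with Benjamini-Hochberg adjustment at 0.05. It was also used for log2 total signal, whose p served only to rank domains. Simulated data were made for total signal only. A simulated log2 change of 1 was recovered in 0% of changed regions with 6 and with 4 libraries, and a change of 2 in 87.5% and 58.5%. Mean signal per covered base was not simulated, so the size of change that its fit could call was not tested. Python 3.11.15 with numpy 2.4.6 was used. Same-numbered WT and KO libraries deviated together from their group means over 718 regions (r of 0.28, 0.31 and 0.48 across regions). Between different numbers r was 0.27 for KO 1 with WT 2, 0.11 for WT 1 with KO 2, and -0.28 to -0.45 for replicate 3 with the other numbers, so numbers 1 and 2 were poorly separated. By the same-number values the replicate numbers were taken to pair the libraries in the alternative with a replicate block. Further alternatives changed the width limit, the support, the scaling, the measure and the libraries.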

Additional observations from a re-analysis of the deposited data

How the results depend on the processing

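The number of domains was 330 with a limit of 15 kb and 269 as stretches of 12 kb or more covered by at least 2 of 4 libraries, against 531. KO replicate 3 then had peaks in 288 (87.3%) and 250 (92.9%) of them, and WT replicate 3 in 170 (63.2%) of the 269 stretches, against 83.2% and 51.8%. With only peaks above the library median signal WT replicate 3 had peaks in 163 of 486 domains (33.5%). Where 50% of the domain had to be covered, the counts were 0 in WT and 89 in KO replicate 3. Leaving out 1 of the 4 libraries gave 414 to 492 domains. The difference in signal share turned from -0.099 to 1.16 points with only peaks above the library median, and ranged from -1.90 to 1.31 points when 1 library was left out. The difference in log2 covered length ranged from -0.42 to 1.35 when 1 library was left out, and was below 0 only without WT replicate 3. With the replicate block the share differed by -0.099 points and the log2 covered length by 0.70, and the block changed no call. For the mean signal per covered base, 0 domains passed in limma with the block or without any 1 library, alternatives chosen after seeing the data, and the smallest adjusted p of a domain was 0.70. Over those the median difference stayed between -0.045 and -0.0011 (log2). For total signal, scaling by mapped reads put the median of all regions at 0.78 with 6 libraries and 0.41 with 4, a shift of 0.80 and 0.41 that is the same for every region, and relative to this median the domains stood at 0.13 and -0.035, as before. The sign differed between total signal and other measures at single domains, mostly with values within 1 standard error of 0. Of the values that follow, only 3 exceeded their standard error. They were Cabp1 (standard error 0.16) and Mgat5b (0.15) with mean signal per covered base, and Neurog3 (0.22) with maximum signal. With mean signal per covered base the log2 difference was -0.11 at Pdx1, -0.053 at Neurog3, 0.34 at Cabp1, 0.20 at Mgat5b, 0.080 at Foxn4, -0.056 in Tfap2b, -0.026 at Rnf165 and 0.011 in Mettl8. With maximum signal it was -0.23 at Neurog3, 0.0073 at Cabp1, 0.14 at Mgat5b and -0.069 at Rnf165. The cause was not tested, nor was the part of depth. The shift of 0.80 alone brings Cabp1 to 0.19, Mgat5b to 0.080 and Foxn4 to 0.16.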
